A study of Homo sapiens with 9 samples.

Results

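Transcript levels of 35 lysosomal genes were measured in U251 cells, an established human malignant glioma line. The genes were taken by name from a list of 36 lysosomal enzymes, enzyme helpers, membrane proteins and proton pump subunits, out of 11963 genes on the array. GLB1, the beta-galactosidase, was the 1 listed gene without a value, because its probe set also carries the symbol TMPPE and only probe sets with 1 symbol were used. The 35 genes were read by 73 probe sets. A gene's value came from its brightest probe set by mean level on the 9 arrays, and the other 38 probe sets served as a check. Of the 35, 6 encode membrane proteins, 4 proton pump subunits, 10 proteases, 8 hydrolases of sugars and sulfates, and 7 lipid hydrolases and their helpers.

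The study used 9 arrays in 3 groups of 3 cultures, and each group carried the replicate numbers 1, 2 and 3. One group was given an siRNA (small interfering RNA) directed at WT1, a zinc finger transcription factor, with the transfection reagent Oligofectamine, the second a scrambled siRNA with the same reagent, and the third Oligofectamine alone. Both siRNAs were given at 100 nM to cells in multi-well plates, and no group was left without reagent. The comparison with scrambled siRNA asks what follows the WT1 sequence, and the comparison of scrambled siRNA with reagent asks what follows a non-targeting siRNA. All cultures came from 1 cell line, so the values describe that line. Fewer cells of a kind and less RNA per cell cannot be told apart in such bulk samples.

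Lysosomes are acidic organelles in which proteins, sugars and lipids are broken down. A proton-pumping ATPase in the membrane acidifies the lumen, and most soluble enzymes reach it from the Golgi by receptors that bind phosphorylated mannose. Many lysosomal genes share a promoter element, called CLEAR, that is bound by TFEB and related factors, so that their transcripts can be regulated as a group. Glioma cells are known for high activity of some cathepsins, the main lysosomal proteases.

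Promoter sequences are shown for the called genes that had an entry and for 5 of the 7 genes with the core of the CLEAR element, namely 4 that differed strongly between replicate numbers and LAMP1, where the core is repeated. RefSeq (GRCh38.p14) promoters running from 250 bases before to 50 bases after the gene start were listed for 25 of the 35 genes. LAMP2, ATP6V1A, ATP6V1H, CTSB, CTSK, CTSS, HEXA, ARSA, ASAH1 and PSAP were not matched. In the following stretches, written in the direction of the gene, capitals mark GGGCGG (a GC box) or its reverse complement in LIPA and CTSC, and GCGGGGGCG (an EGR1-type site that WT1 can bind) or its reverse complement in IDS.
LIPA, chr10:89414680-89414829, minus strand: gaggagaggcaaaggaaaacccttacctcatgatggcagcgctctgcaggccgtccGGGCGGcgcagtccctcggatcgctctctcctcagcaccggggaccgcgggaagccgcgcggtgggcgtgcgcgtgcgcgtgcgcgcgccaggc
CTSC, chr11:88337737-88337886, minus strand: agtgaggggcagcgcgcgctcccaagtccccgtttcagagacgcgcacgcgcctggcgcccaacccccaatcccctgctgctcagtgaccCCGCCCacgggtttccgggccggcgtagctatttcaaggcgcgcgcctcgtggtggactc
IDS, chrX:149505307-149505456, minus strand: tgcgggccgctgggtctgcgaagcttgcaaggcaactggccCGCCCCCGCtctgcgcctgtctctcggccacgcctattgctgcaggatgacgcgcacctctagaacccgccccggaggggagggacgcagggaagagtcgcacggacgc
In the next stretches capitals mark TCACGTG, the core of the CLEAR element, or its reverse complement. Where both strands match at overlapping positions the capitals run on.
CTSD, chr11:1763928-1764017, minus strand: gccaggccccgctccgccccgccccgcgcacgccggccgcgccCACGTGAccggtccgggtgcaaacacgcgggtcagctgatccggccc
NEU1, chr6:31862879-31862968, minus strand: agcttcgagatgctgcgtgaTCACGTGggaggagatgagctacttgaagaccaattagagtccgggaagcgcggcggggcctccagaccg
GAA, chr17:80101484-80101573, plus strand: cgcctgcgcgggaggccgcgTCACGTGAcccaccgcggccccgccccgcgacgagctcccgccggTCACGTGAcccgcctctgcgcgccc
MCOLN1, chr19:7522534-7522623, plus strand: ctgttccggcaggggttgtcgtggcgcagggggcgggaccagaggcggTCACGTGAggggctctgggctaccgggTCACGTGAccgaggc
LAMP1, chr13:113297026-113297115, plus strand: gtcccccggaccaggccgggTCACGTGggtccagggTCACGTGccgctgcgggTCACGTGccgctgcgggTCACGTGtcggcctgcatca

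Each motif was searched on both strands, and a match describes letters only. TCACGTG stood in 7 of the 25 promoters (28%), namely those of ATP6V0D1, CTSA, CTSD, GAA, LAMP1, MCOLN1 and NEU1, against 3.82% of all 27305 RefSeq promoters and 5.29% of the 9563 promoters of genes on the array. CACGTG, which lies within TCACGTG, stood in 8 (32%), the additional gene being CD63, against 7.43% and 9.51%. GGGCGG stood in 22 promoters (88%) against 44.6% and 63.1%. GCGGGGGCG stood in IDS and SCARB2 (8%) against 5.02% and 7.78%.

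Values are log2 expression, and differences between groups are log2 changes within replicate numbers with their standard error (SE) and n = 3 per group. A gene was called changed at an adjusted p under 0.05 in limma's fit with the replicate number as a block. Array values are listed in the order of numbers 1, 2 and 3. The WT1 transcript lay between 4.76 and 5.09 on the arrays with WT1 siRNA, between 5.41 and 5.89 with scrambled siRNA and between 5.89 and 6.58 with reagent. CTSK, CTSS and CTSZ, described below as close to genes that are off, spanned 5.05 to 5.92. With either siRNA WT1 was no higher than that, and signal over background limits what the size of its fall can show. WT1 fell by 0.74 against scrambled siRNA (adjusted p = 0.00336) and by 1.29 against reagent (adjusted p = 0.000619), and it also fell by 0.55 with scrambled siRNA against reagent (adjusted p = 0.0164). Those values are from the brighter WT1 probe set. The other one changed by −0.18 (adjusted p = 0.420), −0.15 (adjusted p = 0.516) and 0.03 (adjusted p = 0.959) in the same comparisons, with both signs within numbers. Without the replicate block limma's adjusted p for the brighter probe set was 0.672, 0.394 and 1.00. Of 8 glioma markers, 7 were brighter than the array median by mean percentile over the 9 arrays, and S100B was not. Of 9 myeloid markers only AIF1 was brighter than the median, and their summed log2 level was 47.5 to 48.3 with WT1 siRNA, 47.2 to 48.5 with scrambled siRNA and 46.8 to 48.0 with reagent. Against reagent, the 8 glioma markers changed by −0.76 to 0.36 with WT1 siRNA and by −1.11 to 0.31 with scrambled siRNA. In limma 5 and 5 of them had an unadjusted p under 0.05, beside 15.9% and 13.1% of all genes. With WT1 siRNA against scrambled siRNA 1 of them did, beside 17.7%. Of the 17 markers, SOX2 alone was called between treatments, with a rise of 0.75 on WT1 siRNA against scrambled siRNA (adjusted p = 0.00282). The other SOX2 probe sets changed by 0.52 (adjusted p = 0.0829) and −0.01 (adjusted p = 0.959) and were not called in that comparison.

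With WT1 siRNA against scrambled siRNA, 4 of the 35 lysosomal genes changed, against 3.70% of all genes. LIPA, the acid lipase that splits cholesteryl esters and triglycerides, and CTSC, a cathepsin that trims dipeptides and activates serine proteases, rose. IDS, a sulfatase of heparan and dermatan sulfate, and ASAH1, the acid ceramidase, fell. Against reagent 2 of 35 changed, with a background of 1.40%: LIPA rose and LAMP2, an abundant glycoprotein of the lysosomal membrane, fell. With scrambled siRNA against reagent 2 of 35 changed, with a background of 1.21%: IDS rose and LAMP2 fell.

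The remaining 30 genes were not called in any of the 3 comparisons, and the genes moved in both directions. The median change of the 35 was 0.01 with WT1 siRNA against scrambled siRNA, 0.09 against reagent and 0.03 with scrambled siRNA against reagent, beside medians of −0.00, 0.01 and 0.01 over all genes. Changes ran from −0.36 to 0.37, from −0.47 to 0.40 and from −0.56 to 0.53. Without its sign the median change was 0.14, 0.14 and 0.08 for the 35, against 0.07, 0.07 and 0.07 over all genes. At an unadjusted p under 0.05, 9 genes were higher and 7 lower in the first comparison, 11 and 3 in the second, and 8 and 2 in the third, beside 17.7%, 15.9% and 13.1% of all genes in either direction. All arrays of one group lay beyond all arrays of the other for 8, 6 and 7 of the 35, against 6.96%, 5.88% and 5.68% of all genes. The 3 comparisons share arrays, so their counts are not independent.

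**Figure D1:**
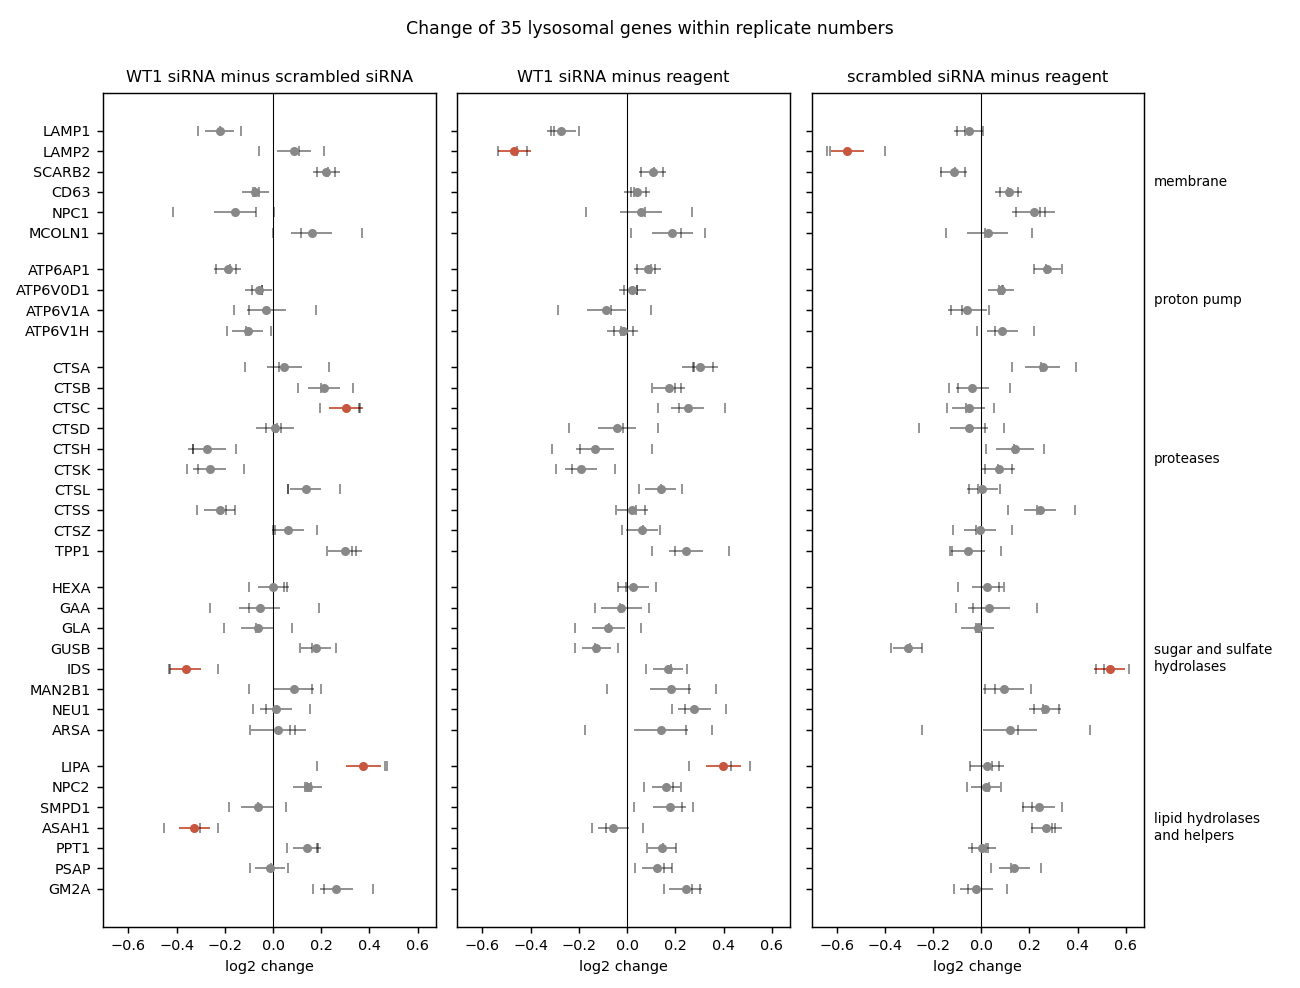
Log2 change of 35 lysosomal genes (rows, by role) in each of the 3 comparisons; points are the fitted change, bars its SE, ticks the difference within each replicate number, and red marks an adjusted p under 0.05. The greatest changes are those of LAMP2 (−0.56) and IDS (0.53) with scrambled siRNA against reagent. From left to right the median change without its sign is 0.14, 0.14 and 0.08, against 0.07, 0.07 and 0.07 over all genes.

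All these calls rested on comparing arrays within replicate numbers. In limma's fit without the replicate block 0 of 35 genes were called in each comparison. An unadjusted p under 0.05 was found for 8, 6 and 4 of them. Over all 22215 probe sets 4, 0 and 1 were called, and 825, 616 and 483 had an unadjusted p under 0.05. Without the block the adjusted p was 0.633 and 0.973 for LIPA in its 2 comparisons, 0.754 for ASAH1, and 1.00 for IDS, LAMP2 and CTSC. Leaving out all arrays of number 2 also gave 0 calls in each comparison. With only the arrays of the 2 groups compared, no call with WT1 siRNA passed: against scrambled siRNA the adjusted p was 0.0686 for LIPA, 0.0555 for IDS, 0.0745 for ASAH1 and 0.0833 for CTSC, and against reagent 0.122 for LIPA and 0.0652 for LAMP2. The calls of IDS and LAMP2 with scrambled siRNA against reagent held there (adjusted p = 0.00626 and 0.00832). Leaving out number 1 or 3 ended the LIPA call against reagent (adjusted p = 0.0983 and 0.0537). Leaving out number 1 ended those of LIPA against scrambled siRNA (0.137) and LAMP2 with scrambled siRNA (0.0591), and leaving out number 3 those of IDS with WT1 siRNA (0.097) and LAMP2 with WT1 siRNA (0.0554).

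Among the membrane proteins LAMP2 was lower after either siRNA. Its level was 11.71, 11.53 and 11.21 with WT1 siRNA, 11.50, 11.43 and 11.27 with scrambled siRNA, and 12.13, 12.07 and 11.67 with reagent. The arrays with scrambled siRNA lay below every reagent array, while those with WT1 siRNA overlapped the reagent arrays through the number 1 culture. LAMP2 fell by 0.47 (SE 0.0694, adjusted p = 0.0184) with WT1 siRNA against reagent and by 0.56 (SE 0.0694, adjusted p = 0.00883) with scrambled siRNA against reagent, in 3 of 3 numbers each time. The 2 siRNA groups differed by 0.09 (adjusted p = 0.614).

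The probe sets of LAMP2 disagreed. The brightest, 200821_at, gave the fall, whereas 203041_s_at changed by 0.11 and 0.03 and 203042_at by 0.10 and 0.03 in the same comparisons, none of them called (adjusted p from 0.387 to 0.931). LAMP2 is known to be spliced into forms with different last exons, and the sources used here do not say which form each probe set reads. Averaged over its probe sets, LAMP2 changed by −0.09 (adjusted p = 0.474) and −0.17 (adjusted p = 0.193). Against reagent, the LAMP2 call for WT1 siRNA ended on leaving out the reagent array of number 1 (adjusted p = 0.0684) or 2 (0.141), or the WT1 siRNA array of number 2 (0.0982) or 3 (0.0524). The call for scrambled siRNA ended without the scrambled array of number 1 (0.0673) or 2 (0.106) or the reagent array of number 2 (0.111).

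**Figure D2:**
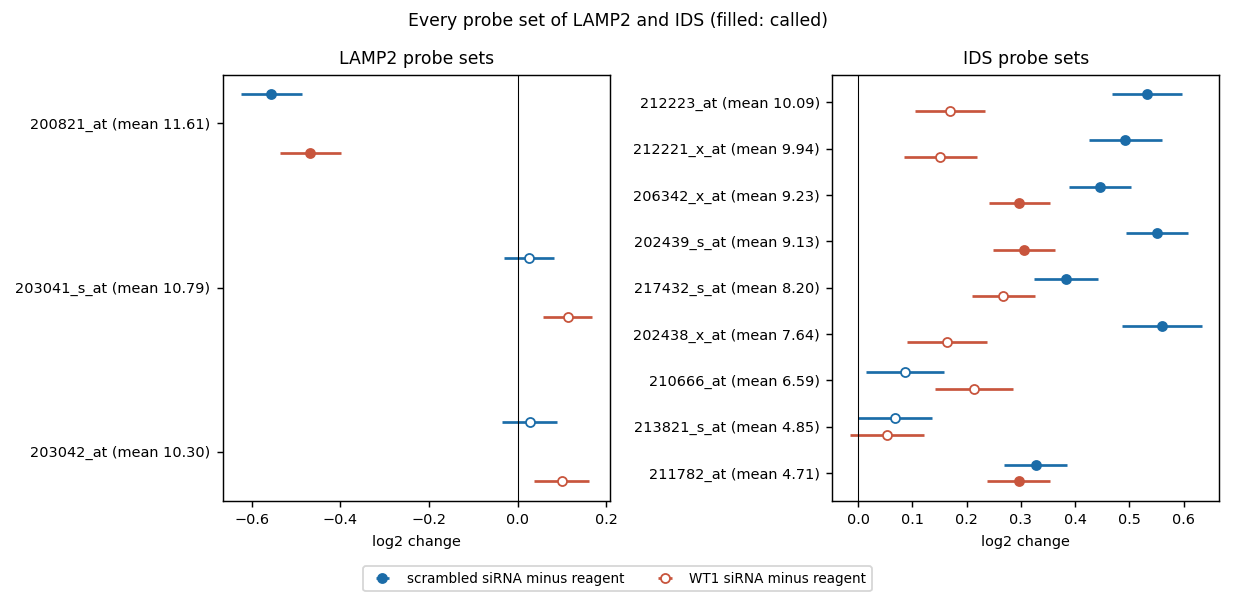
Log2 change with SE of every probe set of LAMP2 (left) and IDS (right) against reagent, for scrambled siRNA (blue) and WT1 siRNA (red), with filled points called and the mean level over 9 arrays beside each name. The brightest LAMP2 probe set lies at −0.56 and −0.47 while the others lie near 0, and 7 of the 9 IDS probe sets are called higher with scrambled siRNA.

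LAMP1, the other main glycoprotein of the lysosomal membrane, did not pass in any comparison. It was at 11.64, 11.70 and 11.67 with WT1 siRNA, 11.95, 11.91 and 11.80 with scrambled siRNA and 11.94, 12.01 and 11.87 with reagent. Every array with WT1 siRNA lay below every control array, yet the changes of −0.22 (SE 0.0601, adjusted p = 0.0877) and −0.27 (SE 0.0601, adjusted p = 0.0676) missed the threshold. The other 3 LAMP1 probe sets changed by −0.24 to −0.13 against either control and were not called either.

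SCARB2 encodes the receptor that carries glucocerebrosidase to lysosomes. Its brightest probe set read 8.97, 8.85 and 8.74 with WT1 siRNA, 8.79, 8.59 and 8.51 with scrambled siRNA and 8.86, 8.70 and 8.68 with reagent. The groups overlapped, but within each number the WT1 siRNA array was the highest, with a change of 0.22 (SE 0.0564, adjusted p = 0.0708) against scrambled siRNA. A further probe set, 201647_s_at, was called higher in that comparison (0.47, adjusted p = 0.00755), and 215754_at was not (−0.04).

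The other membrane genes did not pass. CD63, a tetraspanin, changed by −0.07, 0.04 and 0.11 in the 3 comparisons, in the order given above. NPC1, which exports cholesterol from the lysosome, changed by −0.16, 0.06 and 0.22. MCOLN1, a calcium channel of the lysosomal membrane, changed by 0.16, 0.19 and 0.03.

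None of the 4 proton pump subunits was called in a treatment comparison in limma. An unadjusted p under 0.05 was found for 1, 0 and 1 of them, beside 17.7%, 15.9% and 13.1% of all genes. The accessory subunit ATP6AP1 was at 10.26, 9.57 and 10.25 with WT1 siRNA, 10.41, 9.74 and 10.49 with scrambled siRNA and 10.14, 9.53 and 10.15 with reagent. The array of number 2 was lowest in each group, so the groups overlapped, while within each number scrambled siRNA was highest. The change with scrambled siRNA against reagent was 0.27 (SE 0.0569, adjusted p = 0.0599). ATP6V0D1, of the membrane sector, and ATP6V1A and ATP6V1H, of the cytosolic sector that splits ATP, changed by −0.11 to 0.09 in all comparisons.

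Among the 10 proteases CTSC rose with WT1 siRNA against scrambled siRNA. Its level was 9.88, 10.35 and 10.24 with WT1 siRNA, 9.69, 9.99 and 9.88 with scrambled siRNA, and 9.76, 10.13 and 9.83 with reagent. The groups overlapped, and within 3 of 3 numbers the WT1 siRNA array was higher than both others. The rise of 0.30 (SE 0.0688, adjusted p = 0.0476) was just past the threshold, and the change of 0.25 against reagent was not called (adjusted p = 0.122). CTSC has 1 probe set. The call ended without the scrambled array of number 1 (adjusted p = 0.129), 2 (0.254) or 3 (0.144), the WT1 siRNA array of number 2 (0.166) or 3 (0.127), or the reagent array of number 1 (0.0616) or 2 (0.0846). It also ended with the replicate number as a random effect (0.101) and without all arrays of number 1 (0.08), 2 (0.393) or 3 (0.137).

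TPP1, which cuts tripeptides from the ends of proteins, was at 9.91, 9.96 and 10.05 with WT1 siRNA, 9.57, 9.63 and 9.82 with scrambled siRNA and 9.49, 9.76 and 9.94 with reagent. Every WT1 siRNA array lay above every scrambled array, and the change of 0.30 had an adjusted p of 0.0565. Its probe set 200742_s_at was called in that comparison (0.31, adjusted p = 0.0264), while 214196_s_at (0.25) and 214195_at (−0.12) were not.

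CTSA, a carboxypeptidase that also protects NEU1 in a shared complex, was at 10.18, 10.34 and 10.58 with WT1 siRNA, 10.29, 10.32 and 10.34 with scrambled siRNA and 9.90, 10.07 and 10.22 with reagent. All scrambled arrays lay above all reagent arrays, and the WT1 siRNA arrays overlapped both. The changes against reagent were 0.30 (adjusted p = 0.087) with WT1 siRNA and 0.26 (adjusted p = 0.163) with scrambled siRNA.

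The remaining proteases did not pass. CTSB, an abundant cysteine cathepsin, changed by 0.21 with WT1 siRNA against scrambled siRNA (adjusted p = 0.144), and its other 3 probe sets changed by 0.22 to 0.27. CTSH, a cysteine cathepsin with aminopeptidase activity, changed by −0.27 (adjusted p = 0.107). CTSD, the main aspartic protease, changed by 0.01, −0.04 and −0.05 in the 3 comparisons, and CTSL, a further cysteine cathepsin, by 0.13, 0.14 and 0.00. CTSK, CTSS and CTSZ were dim, between percentiles 26 and 41 of the probe sets of an array, and their levels are close to those of genes that are off. CTSK and CTSS changed by −0.26 and −0.22 with WT1 siRNA against scrambled siRNA and were not called (adjusted p = 0.0716 and 0.114).

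Of the sugar and sulfate hydrolases IDS was highest with scrambled siRNA. Its level was 9.91, 10.15 and 10.00 with WT1 siRNA, 10.14, 10.58 and 10.43 with scrambled siRNA and 9.66, 9.97 and 9.92 with reagent. All scrambled arrays lay above all reagent arrays, and the lowest of them (10.14, number 1) lay just under the highest WT1 siRNA array (10.15, number 2). IDS rose by 0.53 (SE 0.0639, adjusted p = 0.00774, 1.45-fold) with scrambled siRNA against reagent. It fell by 0.36 (SE 0.0639, adjusted p = 0.0198) with WT1 siRNA against scrambled siRNA, and the change of 0.17 against reagent was not called (adjusted p = 0.251).

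Of the other 8 IDS probe sets, 6 were called higher with scrambled siRNA against reagent, by 0.33 to 0.56, and 210666_at (0.09) and 213821_s_at (0.07) were not. With WT1 siRNA against scrambled siRNA 202438_x_at (−0.40) and 212221_x_at (−0.34) were called lower and 6 were not called. With WT1 siRNA against reagent 202439_s_at (0.31), 206342_x_at (0.30) and 211782_at (0.30) were called higher. IDS has a nearby pseudogene, and probe sets whose names end in x_at can bind related transcripts. Averaged over its probe sets, IDS changed by 0.38 with scrambled siRNA against reagent (adjusted p = 0.0131) and by −0.17 with WT1 siRNA against scrambled siRNA, no longer called (adjusted p = 0.109). The IDS rise was not called without the scrambled (adjusted p = 0.0935) or reagent (0.097) array of number 2. The fall was not called without the WT1 siRNA array of number 2 (0.0982) or 3 (0.0525) or the scrambled array of number 2 (0.145) or 3 (0.0888).

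GUSB, the beta-glucuronidase, was at 8.94, 8.91 and 9.02 with WT1 siRNA, 8.83, 8.75 and 8.76 with scrambled siRNA and 9.07, 9.13 and 9.05 with reagent. The 3 groups did not overlap at all, with scrambled siRNA lowest and reagent highest. GUSB nevertheless missed the threshold, with a change of −0.31 (SE 0.0612, adjusted p = 0.0532) for scrambled siRNA against reagent, 0.18 (adjusted p = 0.176) for WT1 siRNA against scrambled siRNA and −0.13 (adjusted p = 0.367) against reagent.

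NEU1, the sialidase, was at 9.80, 10.00 and 10.30 with WT1 siRNA, 9.89, 9.84 and 10.33 with scrambled siRNA and 9.56, 9.59 and 10.11 with reagent. The array of number 3 was highest in each group, so the groups overlapped, and within each number the reagent array was lowest. The changes against reagent were 0.28 (adjusted p = 0.0856) with WT1 siRNA and 0.27 (adjusted p = 0.111) with scrambled siRNA. HEXA, which degrades gangliosides, GAA, which degrades glycogen, GLA, an alpha-galactosidase, MAN2B1, an alpha-mannosidase, and ARSA, the sulfatase of sulfatides, were not called, with changes of −0.08 to 0.18.

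Among the lipid hydrolases and their helpers LIPA was the gene called against both controls. Its level was 9.65, 9.79 and 9.45 with WT1 siRNA, 9.18, 9.33 and 9.27 with scrambled siRNA, and 9.23, 9.28 and 9.20 with reagent. Every WT1 siRNA array lay above every control array, and the 2 control groups overlapped. LIPA rose by 0.37 (SE 0.0719, adjusted p = 0.0264, 1.30-fold) against scrambled siRNA and by 0.40 (SE 0.0719, adjusted p = 0.0342, 1.32-fold) against reagent, and the controls differed by 0.02 (adjusted p = 0.95).

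Within numbers the rise of LIPA against scrambled siRNA was 0.47, 0.47 and 0.18, and against reagent 0.43, 0.51 and 0.26. LIPA has 1 probe set. The call against scrambled siRNA ended without the array of number 1 (adjusted p = 0.0728) or 2 (0.128) of WT1 siRNA, number 1 (0.128) or 2 (0.161) of scrambled siRNA, or number 2 (0.0527) of reagent. Against reagent it held only on leaving out the WT1 siRNA array of number 3 (0.0196), and 8 of 9 omissions ended it: numbers 1 (0.0668) and 2 (0.15) of WT1 siRNA, numbers 1 (0.0526), 2 (0.0753) and 3 (0.0508) of scrambled siRNA, and numbers 1 (0.105), 2 (0.202) and 3 (0.102) of reagent. With each array centred on its median, the change against reagent was 0.37 (adjusted p = 0.057).

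ASAH1 was highest with scrambled siRNA. It was at 9.65, 9.63 and 9.55 with WT1 siRNA, 9.88, 10.09 and 9.85 with scrambled siRNA and 9.58, 9.78 and 9.64 with reagent. The scrambled arrays lay above all arrays of both other groups, which overlapped each other. ASAH1 fell by 0.33 (SE 0.0649, adjusted p = 0.0298) with WT1 siRNA against scrambled siRNA, and the changes of 0.27 with scrambled siRNA against reagent (adjusted p = 0.0955) and −0.06 with WT1 siRNA against reagent (adjusted p = 0.74) were not called.

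Of the other ASAH1 probe sets, 210980_s_at was called lower (−0.31, adjusted p = 0.0292), and 213902_at (−0.14) and 210979_at (−0.03) were not. Averaged over its probe sets the change was −0.20 (adjusted p = 0.112). The call ended without the scrambled array of number 1 (adjusted p = 0.0945), 2 (0.191) or 3 (0.0924), the WT1 siRNA array of number 2 (0.142) or 3 (0.0646), or the reagent array of number 2 (0.0633). It also ended without all arrays of number 1 (0.0576), 2 (0.367) or 3 (0.104).

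**Figure D3:**
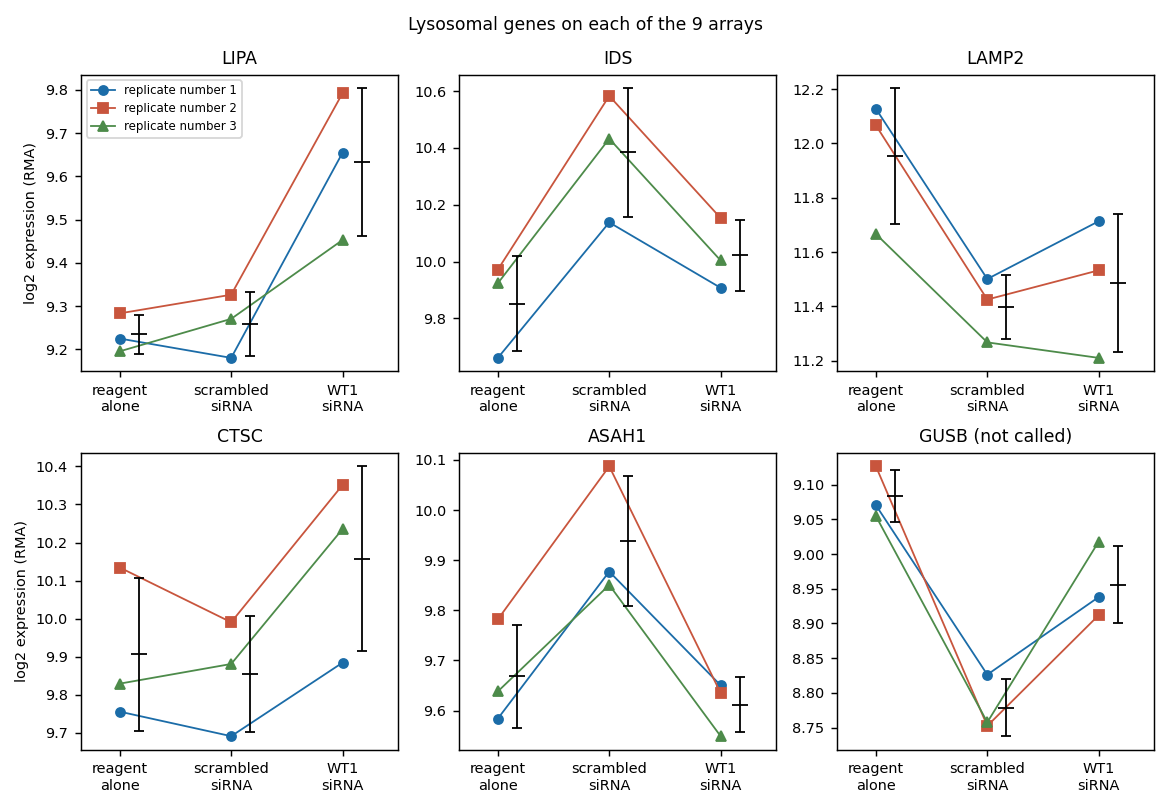
Log2 expression of 6 lysosomal genes on each of the 9 arrays, with lines joining arrays of the same replicate number and black bars giving mean and SD of each group (n = 3). LIPA is highest with WT1 siRNA in every number, IDS and ASAH1 with scrambled siRNA, LAMP2 with reagent, and the 3 groups of GUSB do not overlap.

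The remaining lipid genes did not pass. NPC2, which hands cholesterol to NPC1, lay higher on every WT1 siRNA array than on every control array, with small changes of 0.14 (adjusted p = 0.263) and 0.16 (adjusted p = 0.237). GM2A, the helper protein of ganglioside breakdown, changed by 0.26 (adjusted p = 0.0742) and 0.24 (adjusted p = 0.129). PPT1, a thioesterase that removes palmitate from proteins, changed by 0.14 in both comparisons. SMPD1, the acid sphingomyelinase, changed by −0.06, 0.18 and 0.24 in the 3 comparisons, and PSAP, the precursor of the saposins, by −0.01, 0.12 and 0.14.

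Other genes of the pathway were counted from lists. Of 20 measured further hydrolases, 0 rose and 3 fell with WT1 siRNA against scrambled siRNA, with a median change of −0.09. Over all genes 166 rose and 277 fell in that comparison, 3.70% of 11963, which is also the background of the membrane and trafficking counts that follow. They were the carboxypeptidase SCPEP1 (−0.65, SE 0.0698, adjusted p = 0.00286), the alpha-fucosidase FUCA1 (−0.55, SE 0.0824, adjusted p = 0.0095) and GALNS, a sulfatase of keratan sulfate (−0.25, SE 0.0581, adjusted p = 0.0484). SCPEP1 (−0.46, adjusted p = 0.0189) and FUCA1 (−0.45, adjusted p = 0.0366) also fell against reagent, where 1.40% of all genes were called, with a list median of −0.05. With scrambled siRNA against reagent 0 were called, beside 1.21% of all genes. An unadjusted p under 0.05 was found for 5 of the 20, beside 13.1%.

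Of 16 further membrane proteins SLC17A5, the sialic acid exporter, rose with WT1 siRNA against scrambled siRNA (0.33, SE 0.0594, adjusted p = 0.0217), and CTNS, the cystine exporter, fell (−0.29, adjusted p = 0.0462). The other CTNS probe sets changed by −0.18 and 0.03 and were not called. VAMP7, which acts in fusion of vesicles with lysosomes, was the 1 gene of 18 in trafficking and fusion that was called, with a fall of 0.28 (adjusted p = 0.0363). In both other comparisons 0 genes of these lists were called, beside 1.40% and 1.21% of all genes. An unadjusted p under 0.05 was found for 5 and 2 membrane genes and 2 and 3 trafficking genes, beside 15.9% and 13.1%. Without the replicate block limma's adjusted p was 0.377 to 1.00 for all these calls.

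In 4 further lists limma called 0 genes in every comparison, beside 3.70%, 1.40% and 1.21% of all genes. Of all genes 17.7%, 15.9% and 13.1% had an unadjusted p under 0.05. At an unadjusted p under 0.05 there were 2, 2 and 2 of 14 further proton pump subunits, 6, 1 and 2 of 22 sorting genes, 7, 1 and 4 of 18 genes of transcriptional and mTORC1 control, and 1, 0 and 1 of 8 cathepsin inhibitors. The proton pump list had 2 of 14 changes above 0 with WT1 siRNA against scrambled siRNA, 9 of 14 with WT1 siRNA against reagent and 13 of 14 with scrambled siRNA against reagent, with medians of −0.07, 0.02 and 0.09. Over all genes 49.4%, 53.9% and 55.7% of changes were above 0, and the first and last of these comparisons share the scrambled arrays with opposite sign. The smallest p in that first comparison belonged to the pump subunit ATP6V0A2 (−0.24, adjusted p = 0.0631), the sorting receptor SORL1 (−0.35, adjusted p = 0.0686), LAMTOR3, which anchors mTORC1 (−0.21, adjusted p = 0.0784), and the inhibitor CSTB (−0.17, adjusted p = 0.213). TFEB and TFE3, which bind the CLEAR element, changed by −0.06 and −0.05.

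Replicate numbers separated the lysosomal genes more than the treatments did. Between numbers 21 of 35 genes were called by limma's F test, against 52.1% of all genes. Numbers took 64.0% of the sum of squares of the 35 genes, groups 28.1% and the rest 7.93%, where over all genes the shares were 70.3%, 16.6% and 13.1%. By role, 4 of 6 membrane genes, 3 of 4 pump genes, 8 of 10 proteases, 4 of 8 sugar and sulfate hydrolases and 2 of 7 lipid genes were called. LIPA, ASAH1, LAMP1, NPC2 and GUSB were among the 14 that were not, and GUSB had 91.9% of its sum of squares between groups.

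The 6 genes with the largest F were CTSD, ATP6AP1, NPC1, MCOLN1, NEU1 and GAA. CTSD averaged 9.30 (SD 0.0144), 8.21 (SD 0.145) and 8.97 (SD 0.0658) over the 3 arrays of numbers 1, 2 and 3 (F = 102, adjusted p = 2.8e-05). ATP6AP1 was likewise lowest in number 2, with means of 10.27, 9.61 and 10.30 (adjusted p = 3.49e-05). These 2 genes did not overlap between number 2 and the others in any group.

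NPC1 had the reverse order of CTSD, with means of 7.52, 8.34 and 8.04 (adjusted p = 0.000227). MCOLN1 was highest in number 1, at 7.77 against 7.07 and 7.22 (adjusted p = 0.000377). NEU1 was highest in number 3, at 9.75, 9.81 and 10.24 (adjusted p = 0.000529), and so was GAA, at 6.86, 6.88 and 7.39 (adjusted p = 0.00122). The numbers therefore did not order the genes in 1 way.

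The promoters of CTSD, MCOLN1, NEU1 and GAA are among the 7 with TCACGTG printed or named above. Of those 7 genes 6 were called between numbers, and of the 18 other genes with a promoter entry 10 were, beside 52.1% of all genes. In the treatment comparisons 0 of the 7 were called in limma, with 1, 3 and 2 at an unadjusted p under 0.05. Of the 18, 3, 1 and 1 were called, with 11, 8 and 5 at that p. The shares over all genes were 3.70%, 1.40% and 1.21% called, and 17.7%, 15.9% and 13.1% at that p. The grouping by this motif was made with the values known and is a description.

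The sources used here do not say what a replicate number stands for, such as a day or a plate. The difference between the 3' and 5' control probe sets of ACTB moved with the number, at 0.0507 to 0.0887 in number 1, 0.554 to 0.677 in number 2 and 0.26 to 0.505 in number 3. That of GAPDH was −0.0249 to −0.00564, 0.157 to 0.184 and 0.0953 to 0.106. Between groups these ranges overlapped, and the part of these differences in the results was not tested.

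**Figure D4:**
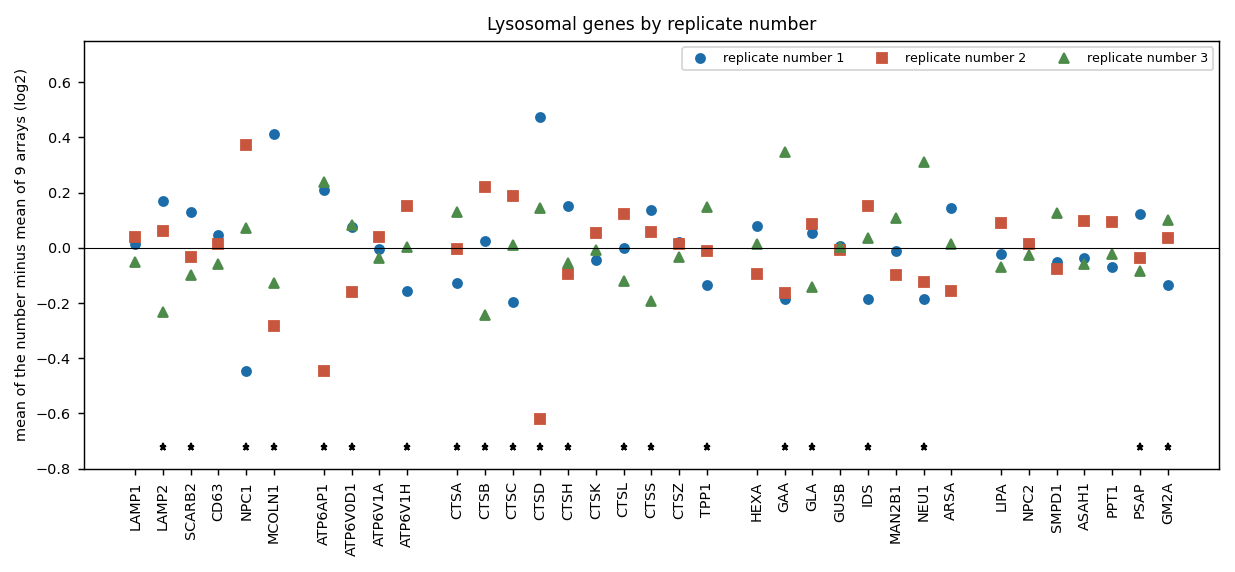
Mean log2 level of each of 35 lysosomal genes over the 3 arrays of a replicate number, minus its mean over all 9 arrays; stars mark an adjusted p under 0.05 between numbers. CTSD, ATP6AP1, NPC1 and MCOLN1 are spread most, and the 3 means of GUSB coincide near 0.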

How the data were processed

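RNA from 9 cultures of U251 cells was labelled and hybridised to Affymetrix arrays. The authors deposited log2 values for each probe set, made with RMA (background correction, normalisation between arrays and summary of probes), per the submitters' processing notes. The sources used here name no software version and no chip definition. Of 22277 probe sets 62 controls were left out, and 22215 were tested. Symbols came from the platform annotation: 19064 probe sets had 1 symbol, 1043 several and 2108 none. No genome build is named for the probes, so genes have no coordinates. For arrays, their number limits the precision.

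Models were fitted to the deposited values with limma 3.58.1 (lmFit, contrasts.fit, eBayes) in R 4.3.3 on all 9 arrays, with group and replicate number as terms. P-values are two-sided and adjusted with the Benjamini-Hochberg method over the tested probe sets. Numbers were taken to pair the arrays. In 9 of 9 pairs of the same number in different groups, deviations from the group mean were correlated at 0.647 to 0.849. The 18 pairs of different numbers had −0.611 to −0.0311. Deviations cancel within a group, so positive values for the same number make those for different numbers negative on average. The negative values are therefore not separate evidence of pairing. The labels describe triplicate wells and biological triplicates. With the replicate number as a block, p-values measure the spread left between these cultures after differences between numbers are taken out.

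The genes and lists were chosen with earlier results of these data known. Array values are given for genes called in a treatment comparison, filled up to 12 with those of smallest p; between numbers the 6 genes of largest F are named, and of other lists the called genes or else up to 2 of smallest p, with TFEB and TFE3 added after their values were seen. On simulated data with independent noise the fit recovered 67% of changes of 0.5 and 97% of changes of 1 against scrambled siRNA. There were 8 false calls among the probe sets given no change. Changes as small as the 0.30 to 0.37 of the genes called in that comparison were not simulated. Alternatives left out the block, made it a random effect, left out arrays or numbers, used only the 2 groups compared, centred arrays, left out the dimmest 40% of probe sets, let the variance follow intensity, or averaged the probe sets of a gene. Figures were drawn with matplotlib 3.10.9.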

Additional observations from a re-analysis of the deposited data

How the results depend on the processing

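The called lysosomal genes numbered 4 (WT1 siRNA against scrambled siRNA), 2 (WT1 siRNA against reagent) and 2 (scrambled siRNA against reagent), and 19 alternatives were tried for each. Without the replicate block the counts were 0, 0 and 0, and with the pairing by number as a random effect 3, 2 and 2. With only the arrays of the 2 groups compared they were 0, 0 and 3. With the variance following intensity they were 6, 5 and 6, and without the dimmest 40% of probe sets 5, 2 and 4. With the mean of all probe sets of a gene they were 4, 1 and 3. That 4 did not hold the same genes, because IDS and ASAH1 were no longer called there by limma (adjusted p = 0.109 and 0.112). Shares of all genes called under each alternative are not given beside the counts in this paragraph. The counts therefore do not describe lysosomal genes in particular. Leaving out single arrays or whole numbers gave 0 to 4, 0 to 1 and 0 to 3 calls. Between numbers, leaving out single arrays gave 15 to 17 in place of 21, and the F test was not run without a whole number. The called changes kept their sign in all 19 alternatives, but several of these could not alter them. With equal groups, leaving out the block, making it random or using only the 2 groups compared cannot move the fitted change. Nor can letting the variance follow intensity, leaving out dim probe sets, or leaving out an array of the group not compared. Averaging probe sets cannot move CTSC or LIPA, which have 1 probe set each. Changes that reversed were uncalled and near 0. With arrays centred NEU1 (−0.00115) and CTSD (−0.00809) reversed against scrambled siRNA, and with probe sets averaged NPC1 reversed for WT1 siRNA against reagent (−0.0148) and TPP1 for scrambled siRNA against reagent (0.0187). On leaving out arrays the change with WT1 siRNA against scrambled siRNA ran from −0.0457 to 0.128 for CTSA, −0.0477 to 0.0541 for CTSD, −0.179 to 0.0468 for GAA and −0.0567 to 0.0626 for NEU1. With WT1 siRNA against reagent it ran from −0.129 to 0.0582 for CTSD, −0.114 to 0.0305 for GAA and −0.0479 to 0.179 for NPC1. With scrambled siRNA against reagent it ran from −0.129 to 0.0538 for CTSD, −0.0695 to 0.127 for GAA, −0.0362 to 0.0668 for LIPA and −0.0655 to 0.122 for MCOLN1. The cause of these shifts was not tested. CTSK, CTSS, CTSZ and ARSA lay below the median of the array, where signal over background limits what can be seen.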
